A study of Mus musculus with 2 samples.

Results

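U6 is the small nuclear RNA at the catalytic centre of the spliceosome, and the mouse genome holds a great many annotated copies of its gene. The copies described here are the rows of the deposited expression table with the symbol U6 whose FPKM, averaged over the WT and the ΔM library, was at least 1. This held for 526 of 933 U6 rows, in a table of 37451 genes. The copies were chosen by their mean FPKM, so their levels are given as a description, with the ratio between the libraries beside the same measure in other genes. The RNA came from primary bone marrow-derived macrophages (BMDMs) of C57BL/6 mice aged 7 to 9 weeks. ΔM cells lacked TTP, a protein encoded by Zfp36 that destabilizes mRNAs. Their strain label was C57BL/6 TTP fl/fl LysMCre, that is, floxed TTP alleles with Cre expressed from the LysM locus, which is active in myeloid cells. WT cells came from littermates. Both cultures received 100 µM 4-thiouridine for 16 h and LPS, a bacterial stimulus, at 10 ng/ml for 6 h. Each genotype was measured in 1 rRNA-depleted library, so that no difference could be set against the spread between replicates and no test was made. How many mice a library came from is not given in the sources used here.

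U6 is made by RNA polymerase III. Its promoter lies upstream of the gene, with a TATA box and a proximal element bound by the SNAPc complex, and a distal element that often holds an octamer bound by Oct-1, the product of Pou2f1. A run of T ends transcription. The La protein, the product of Ssb, holds the new U6 end, MEPCE caps the RNA with a methyl group, TUT1 and USB1 lengthen and trim its 3′ end, and a ring of LSm proteins then binds it. SART3 helps U6 pair with U4, and both enter the spliceosome with U5 in the tri-snRNP. Most U6-like copies of mammalian genomes are pseudogenes, many of them inserted as copies of the RNA by the machinery of mobile elements, without the promoter of the gene they came from.

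The copies resembled each other so closely that their likeness bears on every value below. The sequences were read from the NCBIM37 (mm9) genome at the positions in the table, on the strand of the annotation, and copies were compared base by base. The commonest sequence was 107 bases long, and 43 rows carried it. The copy of it with the most fragments was ENSMUSG00000065084 at chr2:125935644-125935750 on the minus strand. The next 4 copies described are those of 107 nt with the most fragments, ENSMUSG00000065166 at chr13:17901425-17901531 (minus), ENSMUSG00000065348 at chr12:119743401-119743507 (minus), ENSMUSG00000065685 at chr12:117411786-117411892 (plus) and ENSMUSG00000064489 at chr12:53705472-53705578 (minus). The copy with the highest mean FPKM, ENSMUSG00000089106, was 67 bases long, at chr16:14382900-14382966 (plus). A substitution is written as the base of the commonest sequence, its position counted from 1 at the 5′ end of that sequence, and the base of the copy. The copy on chromosome 13 differed from the commonest sequence by 7 substitutions, all from position 99 onwards (C99A, T101A, T103A, T104A, T105A, T106A and T107A), so that it ended in a run of A in place of a run of T. ENSMUSG00000065348 carried G7T, G12A and G88A. The other pair of copies on chromosome 12 carried 1 substitution each, G95A and T107G. The 67-base copy matched the inside of the sequence with 5 differences and lacked its 3′ part.

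Of the 933 rows, 396 were annotated at 107 nt, and the rest ranged from 54 to 120 nt. Copies of 107 nt were above the minimum in 327 of 396 rows and copies of other lengths in 199 of 537 rows. Among all rows there were 872 different sequences, and 11 sequences were held by more than 1 row, 72 rows in all. Where copies of 107 nt differed from the commonest sequence by 1 to 20 substitutions and no gap (285 rows), the changes clustered. The 8 positions most often changed were all in C-G pairs, led by position 95, changed in 99 copies, 88 of them as G95A. Position 66 was changed in 90 copies and position 37 in 85, mostly as C66T and C37T. The sequence held 7 C-G pairs, which made up 13.1% of its positions, and changes of C to T or of G to A within them were 829 of 1965 substitutions (42.2%).

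An FPKM, that is, fragments scaled to gene length and to the number of mapped fragments, had an unusual meaning for genes of this length. Low FPKMs of genes of the same length were whole multiples of a step, and the step is what 1 fragment was worth. The steps followed the rule by which Cufflinks corrects gene length for fragment length, with fragments of 200 nt on average (SD 80 nt), about 37220000 fragments in WT and about 32920000 in ΔM. These fragment lengths, the same in both libraries, belong to the rule behind the FPKMs. They were not measured on the fragments and do not give the fragment sizes of the libraries. Under the rule most fragments count as longer than a U6 copy, so that a 107-nt gene had an effective length of 3.65 nt. A single fragment on it stood for 7.36 FPKM in WT and 8.33 FPKM in ΔM, 29.3 times its worth if the whole length had counted. At 67 nt a single fragment stood for 35.2 and 39.8 FPKM, and at 56 nt for 64.9 and 73.4 FPKM. The steps were found on 39 lengths in WT and 36 in ΔM, and 31 and 34 of these lay within 1% of the rule. The shortest of these lengths were 71 nt in WT and 64 nt in ΔM. The values at 56 nt, and at 67 nt in WT, thus extend the rule beyond the steps seen. Levels of copies are therefore given below as recovered fragments beside the FPKMs.

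**Figure D1:**
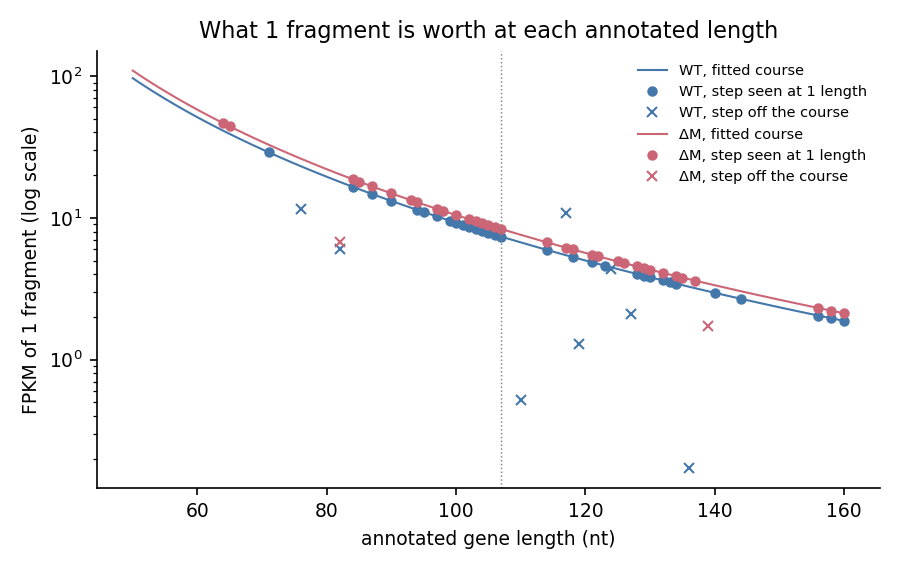
FPKM of 1 fragment (log scale) against annotated gene length in nt, in WT and ΔM; points are the steps seen at 1 length, crosses are steps more than 1% off the fitted course, and the dotted line marks 107 nt. The worth of 1 fragment fell along the course from 64.9 FPKM at 56 nt to 7.36 FPKM at 107 nt in WT, where the shortest length with a step was 71 nt.

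In these units 523 of the 526 copies had a whole number of fragments in both libraries, within 0.1 of a fragment. The 3 exceptions lay in Med23, Fastk and Dnajb14, where fragments can be shared with the surrounding gene. No U6 row had a mean between 0 and 1 FPKM. The 407 rows left out were at 0 in both libraries, and the minimum of 1 FPKM thus asked for at least 1 fragment in either library. Just inside it were ENSMUSG00000088793 at chr9:44284499-44284615 (0 FPKM in WT and 6.16 FPKM in ΔM) and ENSMUSG00000088779 at chr1:133997216-133997331 (0 FPKM and 6.34 FPKM), each with 1 fragment in ΔM. Just outside it were ENSMUSG00000064389 at chr1:95259832-95259934 and ENSMUSG00000064391 at chr6:65939634-65939733, listed at 0 in both libraries. A count of 0 allows up to 3 fragments, which at 107 nt is 22.1 FPKM for WT and 24.98 FPKM for ΔM, a one-sided limit. The upper end of the two-sided 95% Poisson interval used for other copies is at 27.2 and 30.7 FPKM for a count of 0.

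The 526 copies together held 8221 fragments in WT and 9004 in ΔM, which was 0.0221% and 0.0274% of all fragments. Their FPKMs summed to 64574 in WT and 80517 in ΔM, which was 3.50% and 3.21% of the FPKM sum of the table. The gap between these shares is the length correction described above. The median copy had 5 fragments in either library, with quartiles at 1 and 19 in WT and at 1 and 21 in ΔM. In FPKM the medians were 38.01 in WT and 49.97 in ΔM. Only 9 copies in WT and 10 in ΔM had at least 100 fragments, and 158 and 169 had 1 to 3. The 10 highest copies held 21.5% of the U6 fragments in WT and 21.9% in ΔM, and the 50 highest held 50.3% and 49.9%. Both libraries had fragments on 407 of the copies, while 53 were above 0 in WT alone and 66 in ΔM alone, with at most 5 fragments each.

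The copy with the highest mean FPKM was the 67-base copy ENSMUSG00000089106 in an intron of Abcc1, a transporter gene, on the same strand. Its FPKMs of 2043 in WT and 2828 in ΔM stood for 58 and 71 fragments, which placed it at rank 26 by fragments, while Abcc1 itself had 20.2 and 23.6 FPKM. The 56-base copy ENSMUSG00000089199 at chr4:136881474-136881529, in an intron of Cdc42 on the opposite strand, had 843 FPKM (WT) and 807 FPKM (ΔM) from 13 and 11 fragments, rank 188. By fragments, neither short copy was among the 10 highest. The other 10 of the 12 copies with the highest mean FPKM were 107 nt long, lay in no annotated gene and took the ranks from 1 to 10 by fragments.

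Among these, ENSMUSG00000065166 on chromosome 13, with the run of A at its end, had 261 fragments in WT (1922 FPKM, 95% counting interval 1696 to 2170) and 354 in ΔM (2948 FPKM, 2649 to 3272). These exact Poisson intervals, like all intervals given here, cover counting error only, and reads without molecular identifiers are not independent molecules. ENSMUSG00000065348 had 312 fragments in WT (2298 FPKM) and 225 in ΔM (1874 FPKM), and ENSMUSG00000065685 had 263 (1937 FPKM) and 191 (1591 FPKM). Both of these copies were lower in ΔM, with FPKM intervals that overlapped between the libraries. ENSMUSG00000064489, the copy with T107G, had 147 fragments in WT (1083 FPKM, 915 to 1272) and 283 in ΔM (2357 FPKM, 2090 to 2648), with intervals far apart.

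The copies at ranks 5 to 10 were higher in ΔM in FPKM in every case. Only for ENSMUSG00000065931 and ENSMUSG00000065938 among them were the FPKM intervals of the libraries apart, and those of the others overlapped. ENSMUSG00000065931 at chr16:71175067-71175173 had 177 and 216 fragments (1304 and 1799 FPKM). ENSMUSG00000065339 at chr13:79594231-79594337 had 143 and 159 fragments, and ENSMUSG00000064758 at chr8:92113334-92113440 had 136 and 155. These 3 copies differed from the commonest sequence by C25A and A28T, by G7A, G12A and T106A, and by C14T. ENSMUSG00000065724 at chrX:59192066-59192172, with A47T, had 119 fragments in WT and 129 in ΔM. ENSMUSG00000064831 at chr11:16632608-16632714, with G7A and A41T, had 115 and 124. ENSMUSG00000065938 at chr13:16132879-16132985, with C25T, had 97 fragments in WT (714 FPKM, 579 to 871) and 138 in ΔM (1149 FPKM, 966 to 1358). None of the 10 carried the commonest sequence itself.

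**Figure D2:**
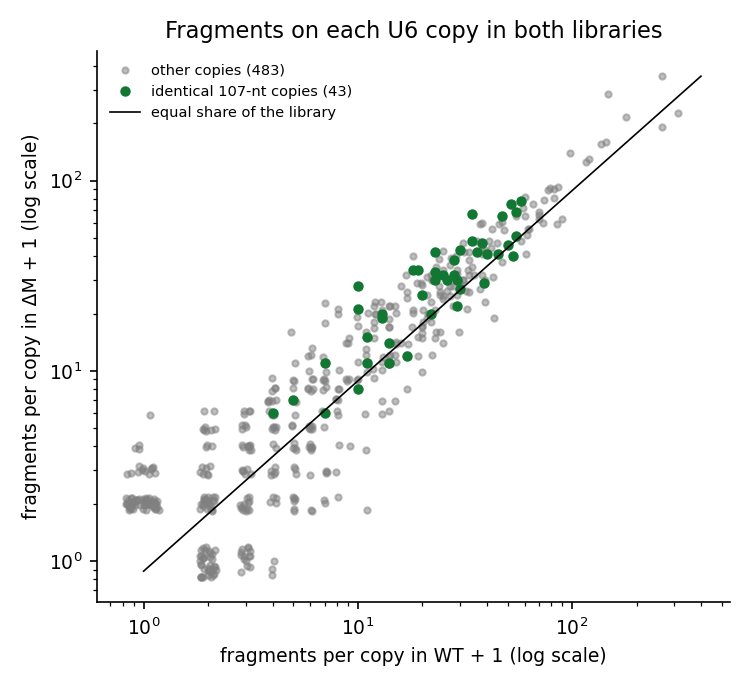
Fragments plus 1 on each of the 526 copies in WT and ΔM, on log axes, with small random shifts on the grey points so that low copies do not overlie each other; green points are the 43 identical 107-nt copies and the line marks an equal share of both libraries. The order of the copies was broadly alike in both libraries (Spearman's rho 0.90), though the highest copies changed places, and low copies spread widely.

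The order of the copies was broadly alike in both libraries, although the highest copies changed places. ENSMUSG00000065348 was the highest in WT and ENSMUSG00000065166 in ΔM. Across the 526 copies, Spearman's rho between the fragments in WT and ΔM was 0.90, and across the 208 copies with at least 20 fragments in both libraries together, Pearson's r of log2 fragments was 0.88 and rho was 0.85. These values are across copies, which share annotation, mapping and genome sequence and are not independent.

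The 43 rows with the commonest sequence lay at 43 places on 18 chromosomes, and all 43 were above the minimum. A fragment lying wholly inside the 107 bases would match at least all 43 places, and the authors kept uniquely mapped reads. Every stretch of 30 bases in the sequence was found at 87 places or more. Even so, these copies held 1112 fragments in WT and 1356 in ΔM, and they differed widely among themselves. In WT they ranged from 3 to 57 fragments with a median of 24, and in ΔM from 5 to 77 with a median of 29. Their variance was 9.22 times the mean in WT and 11.2 times the mean in ΔM, where counting error alone would give a value near 1. The lowest, ENSMUSG00000065138 at chr3:151271307-151271413, had 3 fragments in WT (22.1 FPKM, 4.56 to 64.6) and 5 in ΔM (41.6 FPKM). The highest was ENSMUSG00000065084, in an intron of 4930525F21Rik, with 57 fragments in WT (420 FPKM, 318 to 544) and 77 in ΔM (641 FPKM). Across the 43 copies, Pearson's r between WT and ΔM was 0.86 and Spearman's rho was 0.87. The FPKM was higher in ΔM for 36 of the 43. By the same measure 324 of 485 other genes of 54 to 120 nt were higher in ΔM. Over all 10765 genes that averaged 1 FPKM or more, 5795 were. The 43 rows share their sequence and are not independent, so the 36 are not separate observations.

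Of the smaller groups of identical copies, both groups of 4 with 1 substitution spread widely, while others were closer together. The 4 copies with G95A had 263, 81, 21 and 16 fragments in WT and 191, 89, 17 and 31 in ΔM. The 4 copies with T107G had 147, 36, 27 and 7 fragments in WT and 283, 58, 27 and 5 in ΔM. A group of 5 identical copies with 1 substitution ranged from 14 to 36 in WT and from 11 to 26 in ΔM. Of 5 pairs of identical copies, 3 had near values in WT, at 21 and 24, 13 and 14, and 8 and 8 fragments, and the others had 23 and 59, and 7 and 19. In ΔM the first 3 pairs had 31 and 42, 13 and 16, and 3 and 8 fragments. The others had 38 and 81, and 16 and 19. Over all 40 copies of 107 nt with a single substitution and no gap, fragments ranged from 0 to 263 in WT with a median of 28.5 and from 0 to 283 in ΔM with a median of 32. One copy in a group of 3 identical copies, ENSMUSG00000075710 at chr9:109250038-109250144, was at 0 in both libraries. Among the 43 copies and in both groups of 4, the same RNA sequence was listed at levels that differed by more than 10 times between places in the genome in WT.

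Copies close to the commonest sequence had the most fragments. Differences were counted as the edit distance, the least number of substitutions, insertions and deletions. Every base missing from a short copy counted as a difference, so that the class with more than 20 also holds short copies. ENSMUSG00000089106, of 67 nt, had 44 differences counted this way but 5 within its match, with 58 fragments in WT and 71 in ΔM. The median copy had 24 fragments in WT with 0 differences, 28 with 1 to 2, 13 with 3 to 5, 5 with 6 to 10, 1 with 11 to 20 and 0 with more than 20. In ΔM the medians were 29, 31, 15, 7, 1 and 0. The share of rows above the minimum was 100% with 0 differences, 98.5% with 1 to 2, 97.2% with 3 to 5, 94.0% with 6 to 10, 73.8% with 11 to 20 and 24.3% with more. The 43 rows with 0 differences held 13.5% of the U6 fragments in WT and the 66 rows with 1 to 2 held 35.1%. The 465 rows with more than 20 differences held 5.55% of the fragments in WT and 5.65% in ΔM.

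**Figure D3:**
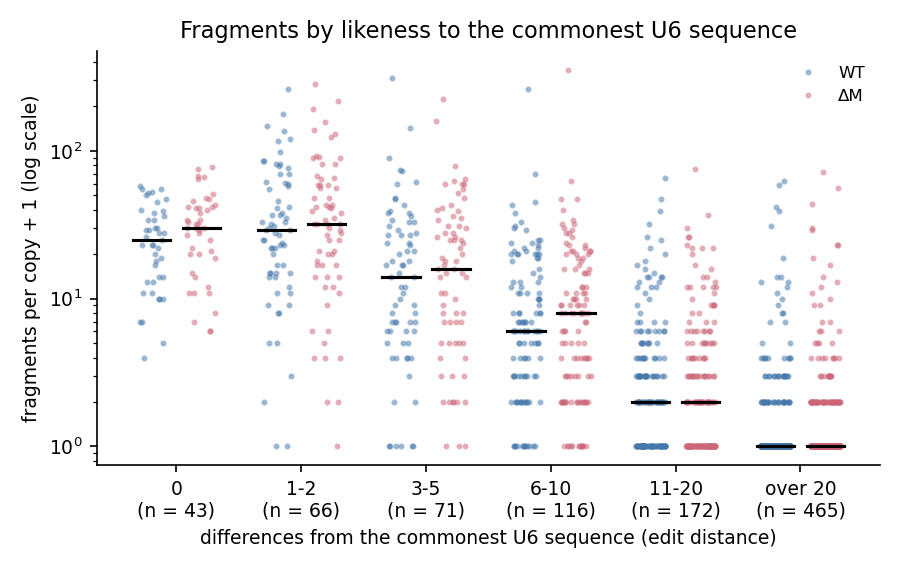
Fragments plus 1 per copy (log scale) in WT and ΔM for all 933 U6 rows, by the number of differences from the commonest sequence, bases missing from short copies included; black bars are medians and n is the number of rows. Medians fell from 24 fragments in WT with 0 differences to 0 with more than 20.

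Uniqueness in the genome ran against the level. For each row, all stretches of 30 bases were looked up in the NCBIM37 genome on both strands. In 100 rows no stretch was found only once, and 94 of these were above the minimum, with 2507 fragments in WT and 2939 in ΔM (30.5% and 32.6% of the U6 fragments). In 396 rows every stretch was found only once. Of these, 82 were above the minimum, with 92 fragments in WT and 100 in ΔM (1.12% and 1.11%) and at most 8 per copy in either library. Between these extremes, 175 rows with up to 50% unique stretches held 4262 and 4533 fragments, and 262 rows with more than 50% but under 100% held 1360 and 1432. Rows unique throughout their length were thus the lowest group. The reads were paired and longer than 30 bases, so a read could reach beyond a copy. The shares of unique stretches thus describe the sequence and not the mapping of the reads. How fragments of a repeated sequence came to be kept at a given copy was not tested.

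U6 rows were found on every chromosome, from 21 on chromosome 19 to 74 on chromosome 1, apart from a single row on chromosome Y that was at 0. The share of rows above the minimum ran from 38.1% on chromosome 19 to 73.5% on chromosome 15. Chromosome 12, with 26 copies, held the most, 936 in WT and 992 in ΔM, and its highest copy took 27.9% of them. Chromosome 13, with 13 copies, held 645 in WT and 821 in ΔM, and ENSMUSG00000065166 took 42.0% of these. Chromosome 1, with 44 copies, held 794 in WT and 797 in ΔM, and its highest copy took 8.93%. Scaled to the total of each library, the ratio of fragments in ΔM to WT ran from 0.99 on chromosome 14 (0.82 to 1.18) to 1.44 on chromosome 13 (1.30 to 1.60).

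**Figure D4:**
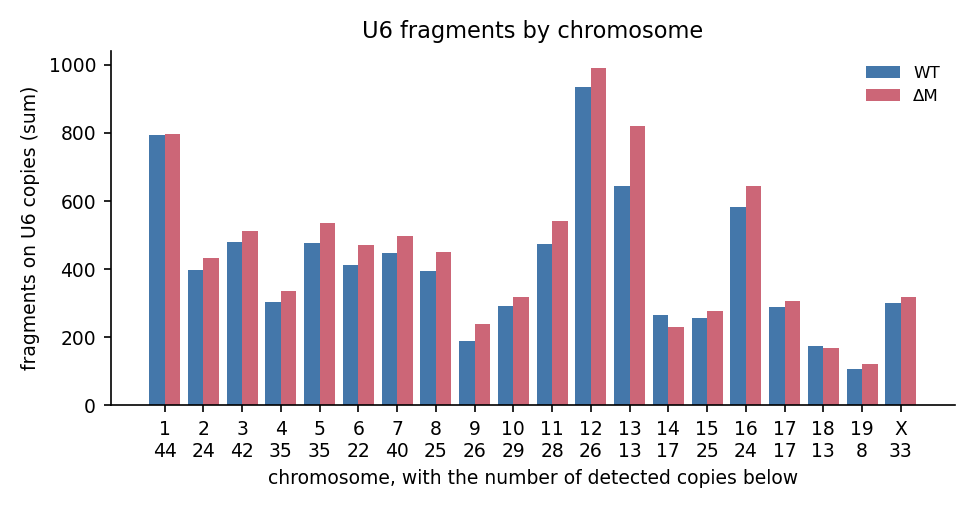
Sum of fragments on U6 copies by chromosome in WT and ΔM, with the number of copies above the minimum below each chromosome. Chromosome 12 held 936 fragments in WT and 992 in ΔM, and chromosome 13 held 645 and 821 on 13 copies.

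Relative to annotated genes, 565 of the 933 rows lay in no other gene, and these held 68.3% of the U6 fragments in WT and 68.8% in ΔM. Introns held 153 rows on the strand of the gene and 206 on the opposite strand, with 14.2% and 16.6% of the fragments in WT. The share of rows above the minimum was 56.1% outside genes, 59.5% in introns on the same strand and 53.9% in introns on the opposite strand. Where the surrounding gene had a mean of at least 1 FPKM, 49 of 72 same-strand intronic copies were above the minimum (68.1%), and where it was lower, 42 of 81 (51.9%). The intronic copy with the most fragments was ENSMUSG00000064494 at chr8:107696396-107696502 in Cbfb, the gene of a transcription factor subunit, with 85 fragments in WT and 92 in ΔM. The next, ENSMUSG00000088184 at chr11:87257976-87258082, lay opposite Tex14, had 76 and 88 fragments, and its surrounding gene was near 0 (0.63 and 0.72 FPKM). Both were picked after their values had been seen. Only 8 pairs of neighbouring rows lay within 10000 bases of each other. The closest pair, ENSMUSG00000064663 and ENSMUSG00000064489 on chromosome 12, faced each other with 590 bases between them and had 36 and 147 fragments in WT and 58 and 283 in ΔM.

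Promoter letters were searched in the genome. TATAA or TTATA on the strand of the copy, 15 to 45 bases upstream, was found in 79 of 933 rows, and the octamer ATGCAAAT on either strand within 300 bases upstream in 26. Copies with the TATA letters were above the minimum in 45 of 79 rows (56.96%) against 481 of 854 without (56.3%). Copies with the octamer were above it in 17 of 26 rows (65.4%) against 509 of 907 (56.1%). Both sets of letters stood before 7 rows, and 4 of these differed from the commonest sequence by at most 2 bases, a limit set after the values had been seen. The other 3, with 9 to 26 differences, had 1 fragment in ΔM on ENSMUSG00000070172 and otherwise 0 in both libraries. The 70 bases upstream of these 4 are shown because these rows joined both sets of promoter letters with a gene close to the commonest sequence. Only ENSMUSG00000064559 among them had an unbroken run of at least 4 T that touched its annotated 3′ end. The remaining 3 of these 4 copies carried T107G, which put a G directly after 4 T. Capitals mark the TATA letters, which began 30 or 31 bases upstream of the copy, and the octamer lay 209 to 230 bases upstream. The stretches are chr12:53705579-53705648 (minus), chr12:53704705-53704774 (plus), chr9:62981020-62981089 (plus) and chr10:79371870-79371939 (plus).
ENSMUSG00000064489: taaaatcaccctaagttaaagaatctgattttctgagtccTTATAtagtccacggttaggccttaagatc
ENSMUSG00000064663: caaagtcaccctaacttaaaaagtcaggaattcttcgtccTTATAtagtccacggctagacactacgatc
ENSMUSG00000064559: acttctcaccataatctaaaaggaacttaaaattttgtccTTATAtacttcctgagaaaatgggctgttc
ENSMUSG00000075854: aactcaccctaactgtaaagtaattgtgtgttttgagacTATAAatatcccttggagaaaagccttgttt
A match of letters is a description and not a site.

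The 4 copies had unequal levels. ENSMUSG00000064489 had 147 fragments in WT and 283 in ΔM, and ENSMUSG00000064663, the copy facing it, had 36 and 58. ENSMUSG00000064559, 1 of the 43 copies with the commonest sequence, had 51 and 74, and ENSMUSG00000075854 had 7 and 5. The first 3 were higher in ΔM and the last was at a few fragments in both. Their sums were 241 and 420 fragments, and the ΔM to WT ratio of scaled fragments was 1.97 (95% 1.68 to 2.32). The other 105 rows with at most 2 differences held 3754 and 4143 fragments, a ratio of 1.25 (1.19 to 1.30). ENSMUSG00000064489 alone gave 283 of the 420 fragments in ΔM, and without it the other 3 copies had a ratio of 1.65 (1.26 to 2.17). An unbroken run of at least 4 T touching the annotated 3′ end was found in 496 rows, of which 346 were above the minimum (69.8%). Of 437 rows without it, 180 were above the minimum (41.2%). Rows with 4 T followed by another last base, like those with T107G, could count as without it.

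The U6 copies as a whole were a little higher in ΔM. WT had 221 and ΔM 274 U6 fragments per 1000000 fragments, giving a ratio of 1.24 (95% 1.20 to 1.28), and the ratio of the FPKM sums was 1.25. Per copy, the median log2 ratio of ΔM to WT after adding 1 FPKM was 0.24, with quartiles at -0.29 and 0.97 and a range from -4.9996 to 6.40. The same median was 0.03 over all 10765 genes that averaged 1 FPKM or more and 0.39 over the 485 other genes of 54 to 120 nt, of which 324 were higher in ΔM. Bulk RNA does not tell fewer cells from less RNA per cell. At 2-fold or more, 129 U6 copies were higher in ΔM (24.5%) and 82 were lower (15.6%). Over all genes 5.69% were higher and 3.61% lower by this measure, and over the other genes of 54 to 120 nt 34.4% were higher and 20.4% lower. These counts include copies at 0 in 1 library, whose fold depends on the 1 FPKM added. Among the 407 copies above 0 in both libraries, 63 were at least 2-fold higher in ΔM and 29 at least 2-fold lower. The U6 shares were above those of all genes and below those of other short genes in either direction.

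Most of these folds rested on few fragments. Of the 211 copies at 2-fold or more in either direction, 179 had under 10 fragments in each library. The 5 largest log2 ratios among copies above 0 in both libraries with a mean of at least 10 FPKM, a pool of 389, were all from 1 fragment in WT to 4 or 5 in ΔM. ENSMUSG00000088291 at chr1:173662191-173662245, 55 nt long, went from 69.1 to 390 FPKM (log2 2.48) with 1 and 5 fragments. ENSMUSG00000064386 at chr12:14885301-14885404 also had 1 and 5 fragments, and ENSMUSG00000065296 (chr10:93647237-93647318), ENSMUSG00000064970 (chr1:183743738-183743831) and ENSMUSG00000065821 (chr1:193586079-193586182) had 1 and 4. The counting intervals of the 2 libraries overlapped for all 5.

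The 5 smallest log2 ratios were alike, from -2.02 to -3.00, with 5 to 10 fragments in WT and 1 in ΔM. ENSMUSG00000064875 at chr18:78730197-78730303 had 10 and 1 fragments (73.7 and 8.33 FPKM), and its intervals overlapped, at 35.3 to 135 FPKM and 0.21 to 46.4 FPKM. ENSMUSG00000065384 at chr11:18638698-18638799 had 7 and 1 fragments. ENSMUSG00000064632 at chr11:5151853-5151959, in an intron of Kremen1, and ENSMUSG00000070158 at chr16:84294780-84294886 each had 6 and 1. ENSMUSG00000065942 at chr5:106501346-106501452 had 5 and 1.

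Copies with more fragments spread less. The 208 copies with at least 20 fragments in both libraries together held 89.8% of the U6 fragments in WT. Their median log2 ratio was 0.31, with quartiles at -0.03 and 0.68 and a range from -1.04 to 2.03. Of these, 155 were higher in ΔM and 53 lower, with 19 at least 2-fold higher and 3 at least 2-fold lower. The counting intervals of WT and ΔM did not overlap for 8 of the 523 copies with whole fragments (1.53%), all higher in ΔM, and for 0 copies lower in ΔM. Among 402 other genes of 54 to 120 nt with whole fragments, the intervals were apart for 13.7% in the higher and 2.24% in the lower direction. Intervals part more easily where there are more fragments. The median U6 copy had 5 in either library, and the other genes were not matched to U6 in number of fragments.

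The 8 copies with intervals apart included ENSMUSG00000064489, ENSMUSG00000065166, ENSMUSG00000065931 and ENSMUSG00000065938, whose values are given above. The 2 among them that carried the commonest sequence were ENSMUSG00000065342 at chr1:97728706-97728812, with 9 fragments in WT (66.3 FPKM, 30.3 to 126) and 27 in ΔM (225 FPKM, 148 to 327), and ENSMUSG00000075780 at chr17:13624899-13625005, with 33 (243 FPKM) and 66 (550 FPKM). The remaining 2 were ENSMUSG00000075760 at chr12:14513393-14513499, with 6 and 22 fragments and 10 differences from the commonest sequence, and ENSMUSG00000064678 at chr5:59606185-59606291, with 17 and 39 fragments. By class of likeness, the ratio of scaled fragments in ΔM to WT ran from 1.10 (0.99 to 1.23) with 11 to 20 differences to 1.38 (1.27 to 1.49) with 0 differences, and was 1.15 (1.07 to 1.23) with 3 to 5.

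Other short RNAs were also higher in ΔM, most by a larger ratio than U6. Of the partners of U6 in the spliceosome, U4, which pairs with U6, had a ratio of scaled fragments in ΔM to WT of 2.04 (2.003 to 2.072) and U5 of 2.21 (2.17 to 2.26). U1, which recognizes the 5′ splice site, had 2.15 and U2, which binds the branch point, had 1.56. Of the snRNAs of the minor spliceosome, U4atac had 2.02 (1.85 to 2.22), U6atac 1.39 (1.22 to 1.57), U11 1.36 (1.28 to 1.45) and U12 1.31 (1.24 to 1.39). U7, which processes histone mRNAs, had 6 fragments in WT and 4 in ΔM, too few for a ratio to be read. Among other products of RNA polymerase III, 7SK, a regulator of transcription elongation, had 1.21 (1.20 to 1.23), vault RNA 1.20 (1.18 to 1.23), RNase MRP RNA 1.26 (1.24 to 1.27), RNase P RNA 1.33 (1.15 to 1.55) and Y RNA 1.66 (1.61 to 1.71). H/ACA snoRNAs, guides of pseudouridylation, had 1.33 (1.30 to 1.36). The highest rows of U1, U2, 7SK, RNase MRP RNA and RNase P RNA were over 160 nt, beyond the lengths on which the worth of a fragment was found. In RNase MRP RNA and in vault RNA, with 2 rows each, 50% of rows had whole fragments. The counting interval of U6 (1.20 to 1.28) overlapped those of 7SK, vault RNA, RNase MRP RNA, RNase P RNA, U6atac and U12, and lay below those of U1, U2, U4, U5, U11, U4atac, Y RNA and H/ACA snoRNAs.

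**Figure D5:**
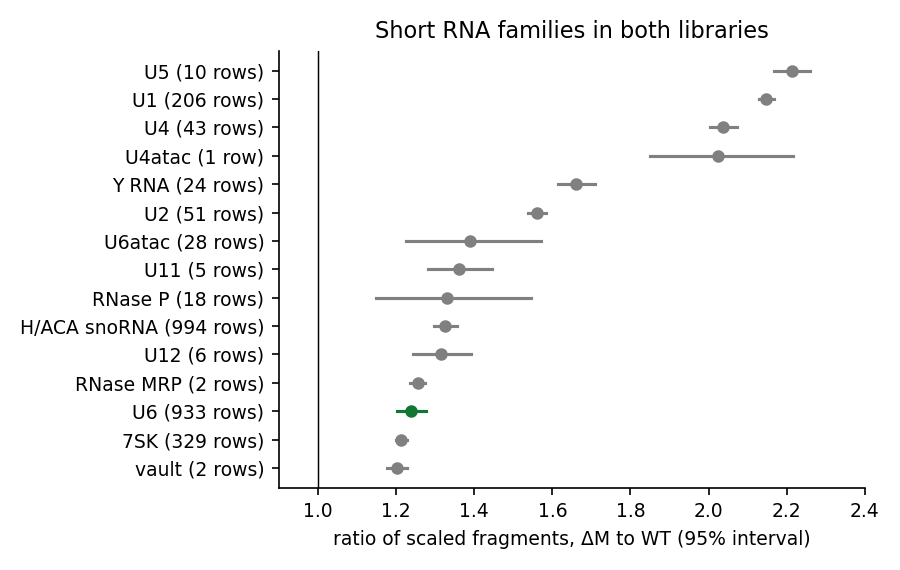
Ratio of fragments in ΔM to WT, each scaled to its library total, by RNA family, with 95% counting intervals as bars; families with under 300 fragments in WT (U7) are not drawn. U6 sits at 1.24, near vault RNA (1.20) and 7SK (1.21), while U1, U4 and U5 are above 2.

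The families also differed in how their level was spread over rows. The highest U6 row in WT, ENSMUSG00000065348, had 2298 of 64574 FPKM of U6, whereas a single row of 141 nt held 31672 of 63970 FPKM of U4 in WT, and a single row of 126 nt held 1877 of 1962 FPKM of U6atac. The highest U1 row had 51720 FPKM in WT against 103009 FPKM in ΔM, the highest U5 row 29234 and 68802 FPKM, the highest U2 row 10313 and 16304 FPKM and the highest 7SK row 8859 and 10695 FPKM. Vault RNA, Y RNA and RNase MRP RNA were led by rows at 48456, 36254 and 11283 FPKM in WT. U11, U12, U4atac and the H/ACA snoRNAs were led by rows at 6569, 4687, 3304 and 3257 FPKM, and U7 and RNase P RNA by rows at 191 and 67.1 FPKM.

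Most genes of the proteins that make and carry U6 were within 2-fold between the libraries. Of 27 genes of U6 biogenesis and the U6 snRNP, 26 were found in the table and 22 had a mean of at least 1 FPKM. None of these 22 was at least 2-fold higher in ΔM, and 2 were at least 2-fold lower, where 5.69% of all genes were higher and 3.61% lower. In all, 9 of the 22 were higher in ΔM by any amount, against 5795 of 10765 genes, and the median log2 ratio was -0.08, against 0.03 over all genes. Both genes that were lower encode proteins of the LSm ring. Lsm2 had 3.44 FPKM in WT and 1.02 FPKM in ΔM (log2 -1.14), and Lsm5 had 2.65 and 0.38 FPKM (log2 -1.40). The other ring genes above the minimum, Lsm3 (7.47 and 6.60 FPKM) and Lsm4 (96.2 and 70.3 FPKM), were lower by less, Lsm6 and Lsm7 were under 1 FPKM in both libraries, and no row was matched to Lsm8. Ssb had 22.8 and 24.7 FPKM, Usb1 104 and 116 FPKM, Mepce 3.99 and 4.09 FPKM and Tut1 2 and 2.04 FPKM. Sart3 had 5.75 and 4.99 FPKM, and Prpf4, of the tri-snRNP, 4.01 and 4.87 FPKM.

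All 29 genes listed for U6 transcription were found, 23 of them with a mean of at least 1 FPKM. None of the 23 reached 2-fold in either direction, beside 5.69% of all genes higher and 3.61% lower. In all, 7 of the 23 were higher in ΔM by any amount, and the median log2 ratio was -0.12. Snapc1, a subunit of SNAPc, had 2.13 FPKM in WT and 2.36 FPKM in ΔM, and Brf2, the TFIIIB subunit used at U6 promoters, had 2.50 and 2.21 FPKM. Polr3g, an alternative subunit of RNA polymerase III, had 0.57 FPKM in WT and was listed at 0 in ΔM, while its paralog Polr3gl had 1.68 and 1.73 FPKM. Pou2f1, which encodes Oct-1, had 1.35 and 1.06 FPKM.

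Facts of both libraries bear on these values. Zfp36 had 65.3 FPKM in WT and 16.7 FPKM in ΔM (log2 -1.90), and was thus lower in the library labelled ΔM. All 7 macrophage markers were detected, from 5.45 to 2481 FPKM in WT and from 11.6 to 1356 FPKM in ΔM. The highest, Lyz2, had 2481 FPKM in WT and 1356 FPKM in ΔM, and the lowest, Mrc1, had 5.45 and 11.6 FPKM. Of the 7 markers, 3 were higher in ΔM by any amount. Markers of T cells, fibroblasts, dendritic cells and erythroid cells were at or below 1.03 FPKM in both libraries, and Cd3e and Hbb-b1 were at 0. Of 5 neutrophil markers, S100a8 had 50.7 FPKM in WT and 100.0 FPKM in ΔM, and the other 4, Ly6g, Elane, Mpo and S100a9, were at most 0.09 FPKM. Their part in the U6 ratio was not tested. The other short genes moved with U6 in the median, as given above, while the FPKM sum of 30533 genes over 300 nt differed by a ratio of 1.02. Library preparation cannot be told apart from genotype in this design.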

How the data were processed

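Total RNA of 1 WT and 1 ΔM BMDM culture was rRNA-depleted and fragmented. The authors selected the cDNA by size on a gel before sequencing. What this selection meant for the levels of RNAs as short as U6 was not tested. The authors trimmed the reads with Cutadapt, aligned them to the mm9 genome (Segemehl), retained reads that mapped uniquely, and computed the deposited FPKM values with Cufflinks on Ensembl exons. Start positions in the table counted from 0, and all 933 U6 rows matched the GENCODE M1 annotation of NCBIM37 after adding 1. A value elsewhere in the table was not a number and was left out. Fragments were recovered from the steps of low FPKMs, up to 20 fragments, at lengths from 60 to 160 nt with at least 5 such values, by a search over 891 fragment models. The search was tested on simulated data and returned the model in 3 of 3 simulated libraries of 4782 genes. Intervals are exact Poisson (fragments of 1 copy) or Clopper-Pearson (ratios), at 95%. Log2 ratios were taken after adding 1 FPKM, which understates changes of genes with low FPKM. For U6 copies 1 FPKM is worth less than 1 fragment. At 107 nt, 0 fragments in WT against 1 in ΔM thus gave a log2 ratio of 3.22. Stretches of 30 bases were looked up with Python 3.11.15, and edit distances came from edlib 1.3.9.post1, with scipy 1.17.1 for intervals. The design expected no test, and none was made. Copies named are the 12 with the highest mean FPKM, the 5 largest and 5 smallest log2 ratios among those at a mean of at least 10 FPKM and above 0 in both libraries, and 2 rows on either side of the minimum, others being named as members of small groups or as marked. Of the listed genes, those set for naming and any at 2-fold or more are given. Pathway and marker lists, families and members were chosen with earlier results of these data known. Alternatives varied the pseudocount, the minimum, the centring and the copies included. A locus start taken as written would shift every sequence by 1 base. The letters of the copies themselves and the B cell markers are not reported here.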

Additional observations from a re-analysis of the deposited data

How the results depend on the processing

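Of 46 alternative values, 32 stayed within the tolerance (0.1 on the log2 scale for medians, 1.5 times for counts, the counting interval for ratios, 1% for the worth of a fragment), 14 moved and 0 changed direction. The number of copies was 933 without a minimum, and the median log2 ratio was then 0, since 407 rows at 0 in both libraries entered. The number of copies at least 2-fold higher in ΔM, 129, fell to 68 with 10 FPKM added, 72 at a minimum of 10 FPKM, 63 among copies above 0 in both libraries, 61 among copies of 107 nt and 19 among copies with at least 20 fragments. The number at least 2-fold lower, 82, became 37, 35, 29, 42 and 3. Each of these subsets holds fewer copies or damps low values by construction. The share of the 10 highest copies in the U6 FPKM sum was 22.2% (WT) and 22.5% (ΔM), and 25.8% and 26.3% when copies of 107 nt alone were used. The ratio of the sums stayed between 1.23 and 1.25. The settings with recovered fragments and with at least 20 fragments were chosen after seeing the data. No paired analysis was possible because each genotype has 1 library. Leaving out a library would leave no ratio. Depth limits the single copies, of which the median has 5 fragments.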
